A study of Mus musculus with 8 samples.

Results

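Dppa2, Dppa3 and Dppa4 are 3 mouse genes named as developmental pluripotency-associated because their transcripts mark pluripotent cells of the early embryo and the germ line. Every probe set with 1 of these symbols as its single gene name was taken, which gave 4 of the 45101 probe sets on the array. Dppa2 has the probe sets 1453223_s_at and 1429654_at, Dppa3 has 1424295_at and Dppa4 has 1429597_at. They stand for 3 of 18194 genes tested. Total RNA was labelled with biotin and hybridised to 8 Affymetrix arrays, 1 sample each, in a study of heart repair with parthenogenetic stem cells. EB_PSC (2 arrays) were made from such stem cells of the strain C57BL/6, which differentiated for 15 days in embryoid bodies, cell aggregates grown without attachment. PSC (3 arrays) are the undifferentiated C57BL/6 parthenogenetic stem cells, derived from blastocysts of oocytes that had been activated with strontium chloride, so that all their chromosomes are maternal. ESC (3 arrays) stand for 1 embryonic stem cell line, R1, grown with leukemia inhibitory factor over a feeder layer of mouse embryonic fibroblasts. The genome's parental origin, the cell line and the strain therefore cannot be told apart between PSC and ESC, and feeder use is stated for ESC alone. The labels do not say whether the arrays of a group stem from different cultures, so the p-values reflect a spread among samples that could be purely technical.

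The 3 proteins act on chromatin and DNA methylation. Dppa2 and Dppa4 are related nuclear proteins with a SAP domain, which bind each other and CpG-rich promoters. In mouse embryonic stem cells they keep a set of developmental and germ line promoters free of DNA methylation, and they act upstream of Dux and the Zscan4 genes, which mark the 2-cell embryo. Dppa3, also called Stella or PGC7, is an oocyte-stored protein that shields the maternal genome from oxidation of methylcytosine in the zygote. It also binds Uhrf1 and so limits the maintenance of DNA methylation, and it is a classic marker of primordial germ cells.

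The cultures carried the transcripts of their labels. The mean over 22 pluripotency genes was 8.71 to 8.83 log2 units on EB_PSC arrays, 10.8 to 10.9 on PSC arrays and 11.1 to 11.4 on ESC arrays. Of 10 cardiomyocyte markers, 9 were higher in EB_PSC than in PSC, and 6 lay below the limit for dim probe sets on every PSC array and likewise on every ESC array. That limit is 5.44, the median of all deposited values, and all 4 Dppa probe sets were above it on all 8 arrays. Between arrays of 1 group, Pearson's r over all probe sets was 0.991 to 0.995, where probe sets do not count as replicates.

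The 3 genes did not run together over the groups. Dppa2 and Dppa4 were lowest in embryoid bodies, intermediate in PSC and highest in ESC, whereas Dppa3 was highest in PSC and lowest in ESC. Dppa2 (1453223_s_at) read 9.46 and 9.22 in EB_PSC, 10.11, 10.01 and 10.10 in PSC, and 10.86, 11.04 and 10.82 in ESC, all as log2 values. No array of 1 group overlapped another group, and each step in that order passed the test. Dppa4 read 10.08 and 9.90 in EB_PSC, 11.27, 11.26 and 11.32 in PSC, and 11.68, 11.44 and 11.65 in ESC. Its groups also stood apart, although PSC and ESC lay only 0.12 apart at their nearest arrays and their difference did not pass the test over all genes. Dppa3 read 7.50 and 8.21 in EB_PSC, 8.51, 8.68 and 8.77 in PSC, and 7.26, 7.76 and 7.20 in ESC. The PSC arrays were above all others, while the EB_PSC and ESC arrays overlapped.

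**Figure D1:**
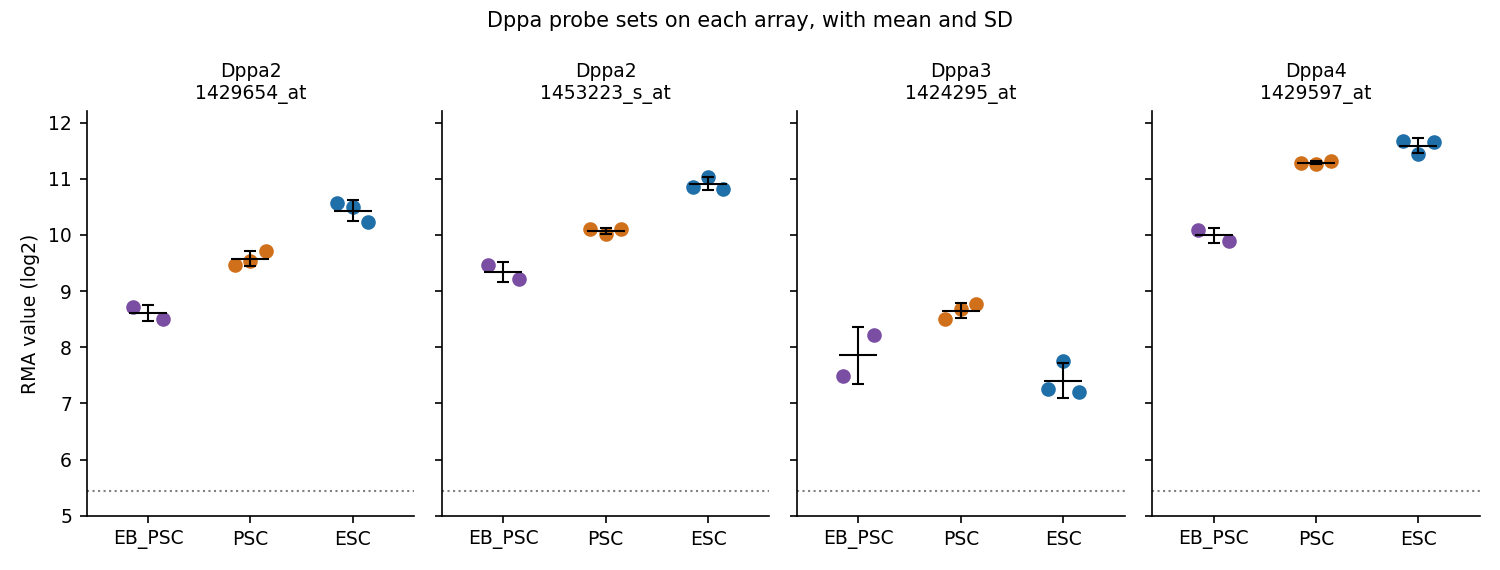
RMA values (log2) of the 4 probe sets on each array, with points for arrays, a horizontal mark and bars for the mean and SD, and a dotted line at the dim limit of 5.44. Dppa2 and Dppa4 climb from EB_PSC to PSC to ESC, and the 3 Dppa3 values in PSC, 8.51 to 8.77, lie above the 5 others.

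Undifferentiated PSC were compared with ESC to ask how stem cells with maternal chromosomes only differ from a standard embryonic line. Dppa3, the maternal protector of methylated DNA, rose in PSC and Dppa2 fell. Dppa3 averaged 8.65 ± 0.13 in PSC and 7.41 ± 0.31 in ESC (log2, SD, n = 3 each), 2.37-fold higher in PSC with a 95% interval of 1.79 to 3.14. The log2 difference was 1.25 ± 0.19 (SE; limma adjusted p = 0.000423), and 0.704% of genes had a larger one. Dppa2 averaged 10.08 ± 0.05 in PSC and 10.91 ± 0.12 in ESC, and it fell by 0.83 ± 0.12 log2 units (adjusted p = 0.00024), a 1.78-fold change with an interval of 1.50 to 2.12. Only 2.69% of genes had a lower difference.

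Dppa4, the partner of Dppa2, averaged 11.29 ± 0.03 in PSC and 11.59 ± 0.13 in ESC. Its difference of -0.30 ± 0.11 did not pass (limma adjusted p = 0.0796), with a 95% interval of -0.55 to -0.06. ESC 2 had the lowest Dppa4 value of its group, and without that array the difference was -0.38 (adjusted p = 0.0336, in a range of 0.0107 to 0.214 over the alternatives). So 2 of the 3 genes were called, in a comparison in which 20.8% of all genes were called, 9.07% higher and 11.7% lower in PSC. PSC and ESC arrays did not overlap for any of the 3, against 17.4% of genes fully higher and 19.1% fully lower in PSC. The median difference over all genes was 0.01.

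Both Dppa2 probe sets gave the same picture. On 1429654_at, Dppa2 read 9.46, 9.54 and 9.72 in PSC, against 10.57, 10.50 and 10.23 in ESC. With every probe set tested as a row of its own, it fell by 0.86 ± 0.13 (limma adjusted p = 0.000807) on 1429654_at and by 0.83 ± 0.12 (0.000471) on 1453223_s_at, where 15.6% of all probe sets were called. Dppa3 and Dppa4 have 1 probe set each, so no second reading exists for them on this array. RefSeq (GRCm38.p6) also lists a pseudogene, Dppa3-ps, on chromosome X, and its part in the Dppa3 signal was not tested.

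Fibroblast markers moved in the same comparison, while few markers of other cells were called. Of 10 cardiomyocyte and 5 embryonic erythroid markers, 0 were called, against 20.8% of all genes called either way. On every PSC array 6 of the 10 and 4 of the 5 lay below the dim limit. The counts were the same on every ESC array, so the 0 says little about those cells. Of 7 visceral endoderm markers 1 was called, Amn, higher in PSC by 1.72. Of 5 markers of the primed epiblast, a later pluripotent state, 1 was called higher in PSC, Zic2. Its means, 5.06 in PSC and 4.43 in ESC, were both dim, so the size of its difference is uncertain. Of 16 fibroblast markers, 11 fell in PSC, 0 rose and 5 did not pass, where 11.7% of all genes were called lower. The median difference of these markers was -0.63. Their summed linear signal was 1502 to 1641 on PSC arrays and 2436 to 3142 on ESC arrays. Lum lay below the dim limit on every PSC and ESC array, and Pdgfrb on every PSC array. The 3' minus 5' signal of the control transcript Actb, a sign of RNA quality, was 1.04 to 1.54 in PSC and 0.69 to 1.13 in ESC, and that of Gapdh was -0.06 to 0.00 in PSC and 0.08 to 0.17 in ESC. The part of feeder RNA or RNA quality in the Dppa differences was not tested.

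**Figure D2:**
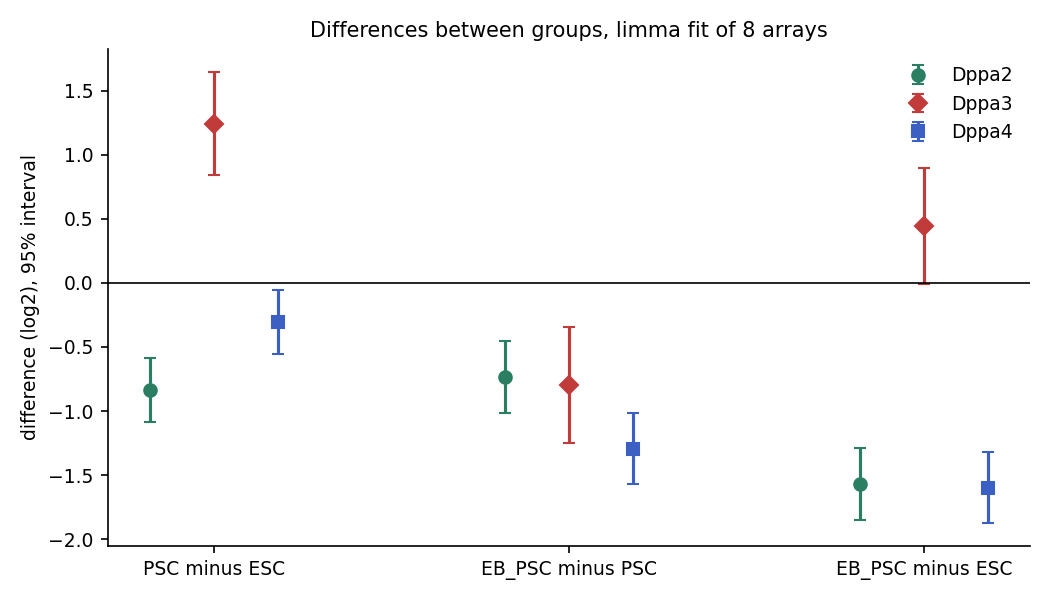
Differences between groups in log2 units, with 95% intervals from the limma fit of all 8 arrays, for Dppa2 (circles), Dppa3 (diamonds) and Dppa4 (squares). Dppa3 lies at 1.25 and Dppa2 at -0.83 for PSC minus ESC, and all 3 lie below 0 for EB_PSC minus PSC.

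Differentiation as embryoid bodies went with lower levels of all 3 transcripts than in PSC, and most pluripotency genes fell further. This comparison and the last share the PSC arrays. Dppa4 fell by 1.29 ± 0.13 log2 units (limma adjusted p = 2.29e-06), to 9.99 ± 0.13 in EB_PSC (SD, n = 2), against 11.29 ± 0.03 in PSC (n = 3), a 2.45-fold change with an interval of 2.03 to 2.97. Dppa2 averaged 9.34 ± 0.17 in EB_PSC and 10.08 ± 0.05 in PSC, and it fell by 0.73 ± 0.13 (0.0004), or 1.66-fold with an interval of 1.37 to 2.02. In bulk RNA, fewer pluripotent cells and less transcript per cell cannot be told apart. All 3 genes were called lower, where 43.9% of genes were called, 25.2% lower and 18.8% higher in EB_PSC. Their arrays did not overlap between the groups, which held in the lower direction for 37.8% of genes, and the median over all genes was -0.09.

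Dppa3 averaged 7.85 ± 0.51 in EB_PSC and 8.65 ± 0.13 in PSC, and it fell by 0.80 ± 0.21 (limma adjusted p = 0.00679), 1.74-fold with an interval of 1.27 to 2.38. The size of that fall rests on 1 embryoid body array. EB_PSC 1 was at 7.50 and EB_PSC 2 at 8.21, and without EB_PSC 1 the difference was -0.44 (adjusted p = 0.139, where the alternatives span 0.00102 to 0.139), while without EB_PSC 2 it was -1.16. Only 2.01% of genes had a larger gap between the 2 embryoid body arrays. Dppa2 and Dppa4 ran the other way, 0.24 and 0.18 lower on EB_PSC 2. So did most pluripotency genes, of which 7 of 22 were higher on EB_PSC 2, the largest by 0.56, against 0.72 for Dppa3. Of all genes, 18.8% were called higher in EB_PSC than in PSC. Markers of differentiated cells were higher in EB_PSC for 12 of 16 fibroblast, 9 of 10 cardiomyocyte, 4 of 7 visceral endoderm and 4 of 5 embryonic erythroid genes. The fibroblast marker Thy1 (-1.02) and the visceral endoderm marker Amn (-1.25) were lower, the 1 such gene in each of those lists, and 3 of 5 markers of the primed epiblast, a later pluripotent state, were higher. The summed linear signal of the fibroblast markers was 32893 to 37258 in EB_PSC and 1502 to 1641 in PSC, and the part of such cells in the Dppa values was not tested.

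The other Dppa2 probe set fell further. On 1429654_at, Dppa2 read 8.71 and 8.51 in EB_PSC, against 9.46, 9.54 and 9.72 in PSC. In the test of every probe set it fell by 0.96 ± 0.15 there (limma adjusted p = 0.000209) and by 0.73 ± 0.13 on 1453223_s_at (0.000715), where 34.5% of probe sets were called. The 2 probe sets gave the same direction in each of the 3 comparisons.

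EB_PSC and ESC differ in cell line as well as in differentiation, and their comparison shares arrays with the other 2. Dppa2 was lower in EB_PSC by 2.96-fold, with an interval of 2.44 to 3.60 (limma adjusted p = 3.64e-07), and Dppa4 by 3.03-fold, with an interval of 2.50 to 3.67 (2.61e-07). Dppa3 averaged 7.85 in EB_PSC and 7.41 in ESC, a difference of 0.45 ± 0.21 with an interval of -0.00488 to 0.90, which did not pass (0.104). It was 0.81 (0.00922) without EB_PSC 1, 0.09 (0.799) without EB_PSC 2 and 0.62 (0.0213) without ESC 2. Calls were made for 44.9% of genes, 25.6% lower and 19.3% higher in EB_PSC. In the order of Dppa3 levels, the neighbours EB_PSC and ESC were thus not separated beyond their spread in the fit of all arrays.

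Differences between 2 genes on the same array remove whatever scales the array as a whole. Dppa3 minus Dppa2 was -1.61, -1.33 and -1.33 on PSC arrays, against -3.60, -3.28 and -3.62 on ESC arrays, a mean difference of 2.08 log2 units without overlap. Dppa3 minus Dppa4 differed by 1.55 between PSC and ESC, and Dppa4 minus Dppa2 by 0.53, also without overlap. Each had an exact two-sided permutation p of 0.1, the smallest that 3 arrays against 3 allow, and an adjusted p of 0.2 over the 6 tests made. For both pairs with Dppa3, the lack of overlap and the p of 0.1 were fixed by the levels given above. There Dppa3 was higher on every PSC array than on any ESC array, and Dppa2 and Dppa4 were lower. These pairs therefore add no separate support. Between EB_PSC and PSC, Dppa4 minus Dppa2 was 0.62 and 0.68 in EB_PSC, against 1.16, 1.25 and 1.22 in PSC, a mean difference of -0.56 without overlap (exact p = 0.2, the smallest possible with 2 against 3; adjusted p = 0.3). These values use 1453223_s_at for Dppa2, and the gap would be smaller on 1429654_at, where Dppa2 fell by 0.96. Dppa3 minus Dppa2 differed by -0.06 (exact p = 0.8) and Dppa3 minus Dppa4 by 0.50 (exact p = 0.6), with overlap in both.

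**Figure D3:**
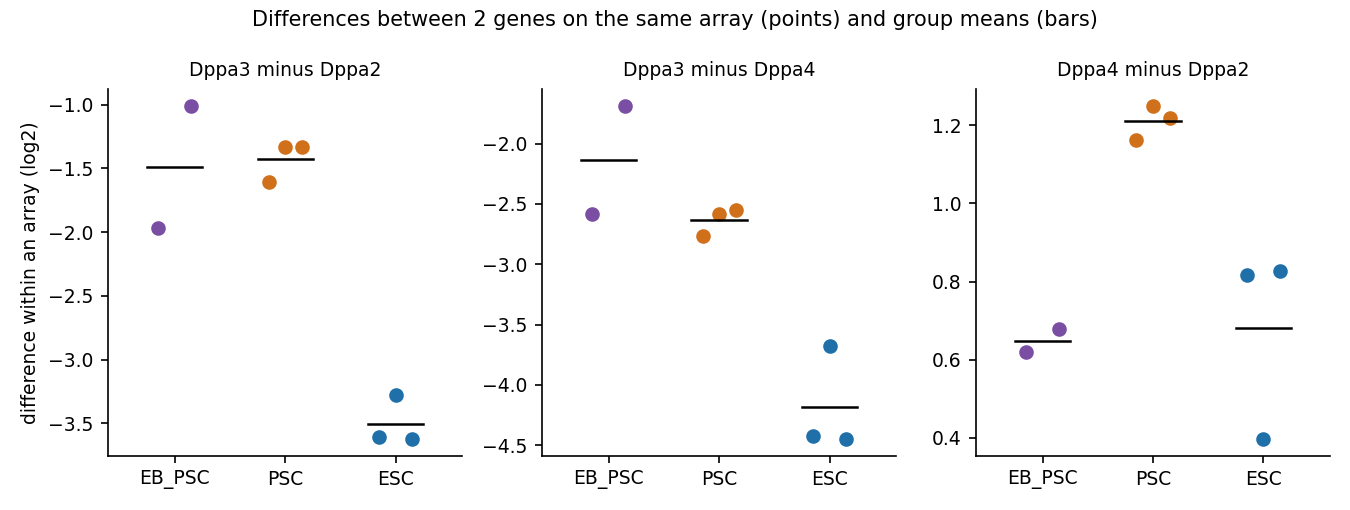
Differences within an array (log2) between pairs of the 3 genes, with points for arrays and bars for group means; only changes between groups are meaningful, not the levels. Dppa3 minus Dppa2 lies near -1.4 in PSC and near -3.5 in ESC, and its 2 EB_PSC values, -1.97 and -1.01, lie on both sides of the PSC values.

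Among pluripotency genes the Dppa genes took different places in the 2 comparisons. All 22 measured genes of the list fell in EB_PSC against PSC, where 25.2% of all genes were called lower. Their median was -2.07, against -0.09 over all genes. Dppa2 and Dppa3 each fell by less than every one of the 22, and Dppa4 by less than 17 of them. For Dppa2 that holds on 1453223_s_at. For Dppa3 it rests on EB_PSC 2, since without that array, a setting added after seeing the data, 5 of the 22 fell by less than its -1.16. These gaps between genes were not tested. The list member with the smallest fall was Dppa5a, which shares only the name and encodes a KH-domain protein, at -0.93 ± 0.12 (limma adjusted p = 2.3e-05), a smaller fall than the -0.96 of Dppa2 on 1429654_at. Esrrb, an orphan nuclear receptor gene, had the largest fall, 3.62 ± 0.17 (1.81e-09). In PSC against ESC, 3 genes of the list rose, 7 fell and 12 did not pass, and the median was -0.23. Over all genes, 9.07% were called higher and 11.7% lower. Dppa3 was above all 22 and Dppa2 below 17 of them. The core factor gene Pou5f1 fell by 0.61 in PSC (0.00479), and Zfp42, which encodes Rex1, had the lowest difference at -2.73 (1.07e-08).

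**Figure D4:**
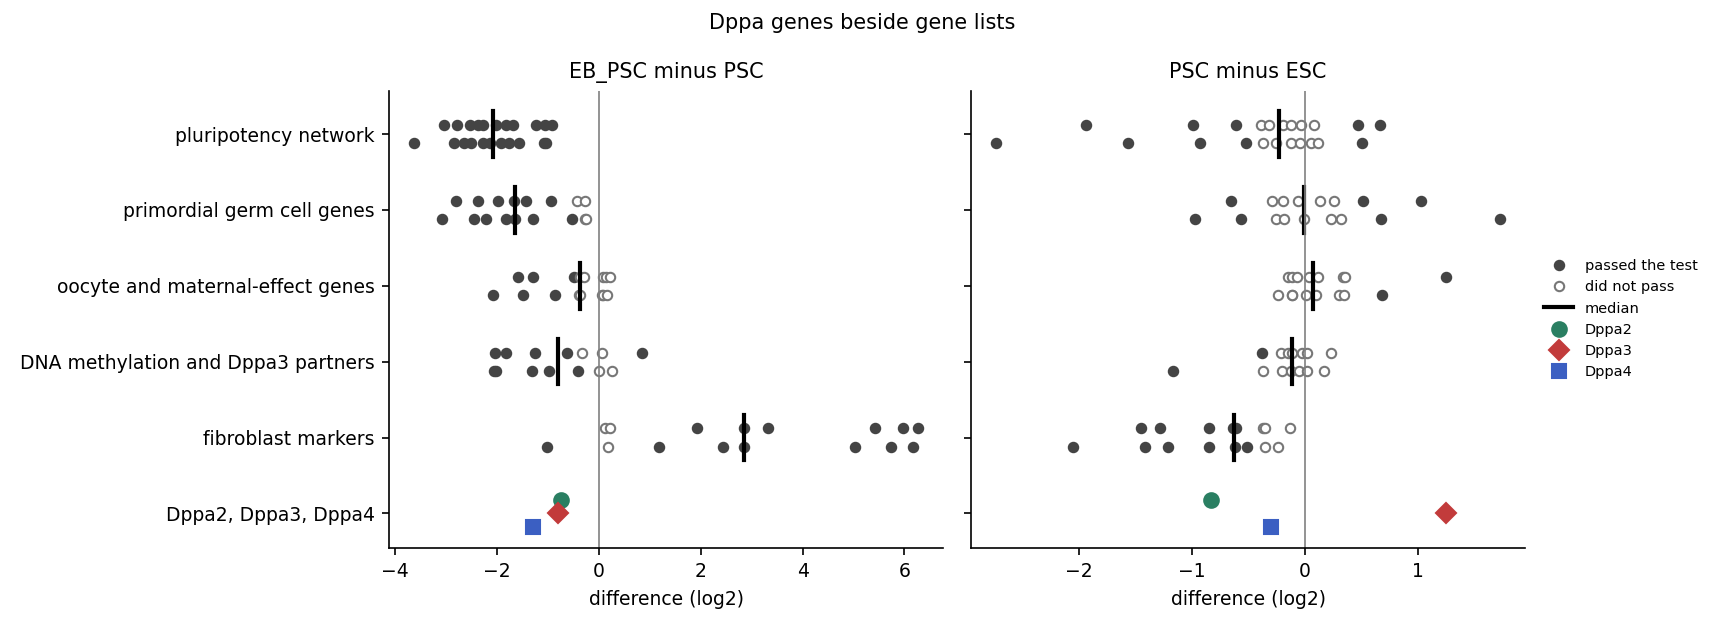
Differences (log2) of the genes of 5 lists in EB_PSC minus PSC and in PSC minus ESC, with filled points for genes past the test, open points for the others, vertical bars for list medians, and the 3 Dppa genes in the lowest row. The Dppa genes lie to the right of the pluripotency median of -2.07 in embryoid bodies, and Dppa3 lies to the right of the whole pluripotency list in PSC minus ESC.

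Germ line transcripts, the company in which Dppa3 is best known, split in PSC against ESC. Of 17 primordial germ cell genes measured, 4 were higher and 3 lower, while 10 did not pass, and the median was -0.01. Of all genes, 9.07% were called higher and 11.7% lower. Mael, a piRNA pathway gene, rose by 1.72 ± 0.15 (limma adjusted p = 5.75e-06), reading 8.66, 8.59 and 8.75 in PSC, against 6.88, 6.81 and 7.15 in ESC. Ifitm3, an interferon-induced membrane protein gene also known as Fragilis, rose by 1.02 ± 0.13 (0.000157). Tfap2c, a germ cell specification factor gene, rose by 0.67 (0.0359), a call lost without PSC 1, PSC 3, ESC 1 or ESC 3, with its probe sets averaged (0.31) and without _s_at and _x_at probe sets (0.05). Sycp3, a gene of the meiotic chromosome axis, fell by 0.97 ± 0.20 (0.00395). The other lower genes were Tdrd12, at -0.65 (0.00499), and Prdm1, at -0.57 (0.0223), whose alternatives are not given here. The other higher gene was Ddx4, at 0.51 (0.0222), a call lost without PSC 1, PSC 3, ESC 1 or ESC 2. In EB_PSC against PSC 13 genes of the list fell, 0 rose and 4 did not pass, where 25.2% of all genes were called lower. The median was -1.65. Mael fell by 3.08 ± 0.17 (6.86e-09), to 5.88 and 5.30, Tex14 fell by 2.80 and Ddx4 by 2.45, all further than Dppa3. Mael and Ddx4 lay below the dim limit on EB_PSC 2, so the sizes of their falls are uncertain.

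Of the oocyte and maternal-effect genes, the other group to which Dppa3 belongs, 16 were measured. Between PSC and ESC 2 rose, 0 fell and 14 did not pass, and the median was 0.07. The share that rose is near the 9.07% of all genes called higher. On every PSC array 8 of them lay below the dim limit, as did 8 on every ESC array. Padi6 and Ooep rose, and both belong to the subcortical maternal complex of the oocyte. Others of that complex in the list did not pass, with Tle6 at 0.34 (adjusted p = 0.0501), Khdc3 at -0.24 (0.313) and Nlrp5 dim in both groups. Padi6 read 6.32, 6.83 and 6.49 in PSC, against 5.23, 5.21 and 5.48 in ESC (limma adjusted p = 0.000159). Its ESC mean was dim, so the size of its difference, 1.24, is uncertain. Ooep rose by 0.68 ± 0.11 (0.000881). Embryoid bodies had 6 of the 16 lower than PSC and 0 higher, and 10 did not pass, with a median of -0.37. Over all genes, 25.2% were called lower. The largest falls were those of Khdc3 (2.09 ± 0.17), Zp3 (1.58 ± 0.14) and Ooep (1.49 ± 0.13). Zp3 was dim in EB_PSC, so the size of its fall is uncertain.

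Of 14 genes of DNA methylation and Dppa3 partners, 2 fell in PSC against ESC, 0 rose and 12 did not pass, and the median was -0.12. That share is near the 20.8% called over all genes. Uhrf1, whose protein Dppa3 binds, differed by -0.05 (limma adjusted p = 0.851), Dnmt1, the maintenance methyltransferase gene, by -0.03 (0.912) and Tet1, a methylcytosine oxidase gene, by -0.12 (0.578), beside the 1.25 of Dppa3. The histone methyltransferase gene Ehmt2 fell by 1.17 ± 0.16 (0.00019), and the importin gene Ipo5 fell by 0.38 (0.0437), a call lost in alternatives that include leaving out PSC 1, PSC 2, PSC 3, ESC 1 or ESC 3. In EB_PSC against PSC, 9 of the 14 were lower, 1 was higher and 4 did not pass, with a median of -0.80. Over all genes, 25.2% were called lower. Dnmt3l, a cofactor gene of de novo methylation, fell by 2.06 ± 0.17 and Tet1 fell by 2.04 ± 0.15. Uhrf1 fell by 2.02 ± 0.16 and the corepressor gene Trim28 fell by 1.83 ± 0.17. These falls, and those of Dnmt3l and Tet1, are the largest of the list, and the 0.80 of Dppa3 is near the list median. Uhrf2, a paralogue of Uhrf1, rose by 0.85 ± 0.11 (4.09e-05).

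Of the genes known to depend on Dppa2 and Dppa4 in mouse embryonic stem cells, 3 of 7 could be matched by symbol. Mael, above, was higher in PSC, and Dppa2 was lower there. The part of Dppa2 in the Mael value was not tested. Syce1, a gene of the meiotic synaptonemal complex, averaged 6.60 in PSC and 6.71 in ESC and did not pass (limma adjusted p = 0.699), nor did the heart factor gene Nkx2-5 at -0.12 (0.573). In EB_PSC against PSC, Mael fell by 3.08, with EB_PSC 2 below the dim limit. Syce1, dim in EB_PSC, had a difference of -1.86, and the sizes of both are uncertain. Nkx2-5 was at 0.32 (0.0766) and passed with cyclic loess (0.0134). Genes of the 2-cell embryo, of which 7 of 18 were measured, had 0 called between PSC and ESC by limma, with 1 at an unadjusted p below 0.05, and 5 of the 7 lay below the dim limit on every PSC array. That 1 was Duxf3, named after its values were seen, which was also the 1 gene called (lower) in EB_PSC against PSC. It was dim in all 3 groups, so no size is given, and the tables used here do not pair it with the Dux of the list of dependent genes. The Zscan4 genes share a probe set that names several genes and were not analysed here.

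The nearest measured genes were 3 on either side of Dppa3 and 3 on either side of the Dppa4 and Dppa2 pair. Of these 12, 2 were called in PSC against ESC, near the 20.8% of all genes. In RefSeq order, Dppa3 lies on chromosome 6 between Gdf3, a growth factor gene, and Nanog, a core pluripotency factor gene. In PSC against ESC, Dppa3 differed by 1.25, while Gdf3 differed by -0.12 (limma adjusted p = 0.582) and Nanog by -0.32 (0.066, passing with the filter on dim probe sets, with the mean of probe sets and with the trended prior). Mfap5, a microfibril gene, the third measured gene before Dppa3, rose by 0.75 ± 0.15 (0.00305). In EB_PSC against PSC 5 of the 6 neighbours of Dppa3 fell, where 25.2% of all genes were called lower. Gdf3 fell by 2.02 ± 0.14, Nanog fell by 1.92 ± 0.13 and Mfap5 fell by 1.13 ± 0.17. Apobec1, an RNA editing enzyme gene, fell by 1.31 ± 0.14 and the glucose transporter gene Slc2a3 fell by 0.93 ± 0.14. Foxj2, the third measured gene on the far side, rose by 0.42 (0.0178), a call lost without PSC 2 or EB_PSC 2 and with the mean of its probe sets.

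Dppa4 and Dppa2 are adjacent on chromosome 16, and the nearest bright gene beyond Dppa2 is Morc1, a germ line gene of transposon silencing. Morc1 averaged 9.33 ± 0.31 in EB_PSC, 10.22 ± 0.13 in PSC and 11.64 ± 0.03 in ESC, the same order as Dppa2 and Dppa4. In PSC against ESC it fell by 1.42 ± 0.13 (limma adjusted p = 8.31e-06), beside differences of -0.83 for Dppa2 and -0.30 for Dppa4, and in EB_PSC against PSC it fell by 0.89 ± 0.15 (0.00022). The other 5 measured neighbours were not called in either comparison. Nectin3, an adhesion gene, was at -0.38 in PSC against ESC (0.0708) and passed without ESC 2 (-0.53, adjusted p = 0.00767). In EB_PSC against PSC it was at 0.26 (0.205), passing with cyclic loess (0.43, 0.0236), and the others, Cd96, 6430553K19Rik, Gm5485 and Trat1, were dim in all 3 groups.

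**Figure D5:**
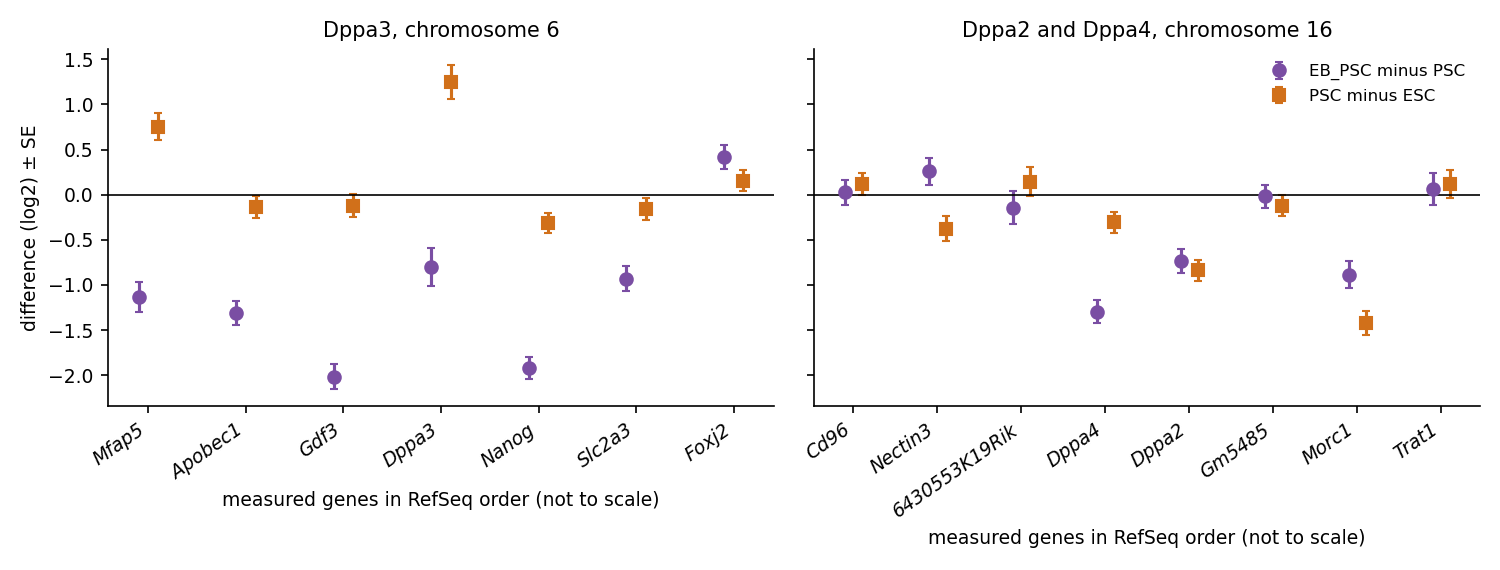
Differences (log2) ± SE of the 3 nearest measured genes on either side of Dppa3 and of the Dppa4 and Dppa2 pair, in RefSeq order and not to scale, for EB_PSC minus PSC (circles) and PSC minus ESC (squares). For PSC minus ESC, Dppa3 stands at 1.25, with Gdf3 at -0.12 and Nanog at -0.32 beside it and Mfap5 at 0.75, while Morc1 lies below 0 in both comparisons, as Dppa2 does.

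Likeness to other genes was measured as the root mean square distance between log2 profiles over the 8 arrays, each centred on the mean of its 3 group means, among 11719 genes above the dim limit. Dppa2 and Dppa4 were 0.29 apart, while Dppa3 was 1.03 from Dppa2 and 0.93 from Dppa4. Nearest to Dppa4 were Smagp (0.05), Rfc5 (0.05), 1700001L05Rik (0.06), Hap1 (0.07) and Tuba4a (0.07). Nearest to Dppa2 were Cmss1 (0.08), Fam169a (0.12), Fzd5 (0.12), Socs2 (0.12) and Ecd (0.13). The nearest profiles to Dppa3 were farther off, at 0.19 for S100a13, 0.22 for D2hgdh, 0.22 for D130020L05Rik, 0.23 for Phlda2 and 0.24 for Gm5617. The distance also counts the spread within groups, which was larger for Dppa3 (SD 0.51 in EB_PSC and 0.31 in ESC) than for Dppa2 and Dppa4. Its larger distances therefore do not by themselves show an unusual profile. Phlda2, a maternally expressed imprinted growth regulator, read 10.39 and 10.44 in EB_PSC, 10.92, 11.27 and 11.32 in PSC, and 9.61, 9.89 and 9.49 in ESC.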

How the data were processed

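The authors deposited 1 log2 RMA value per probe set and array, made with Bioconductor per the labels and with RMA per the submitters' processing notes. No version or setting is given in the sources used here. RMA makes arrays share a distribution and compresses small signals, so a shift of most transcripts would not be seen. The platform annotation gave gene names, with 1 gene for 34958 probe sets, and each gene was represented by its brightest probe set. Groups were compared with limma 3.58.1 in R 4.3.3, in 1 fit of all 8 arrays with 5 residual and 8.07 prior degrees of freedom. Its two-sided p-values underwent Benjamini-Hochberg adjustment across 18194 genes, and genes below 0.05 were called. Permutation tests used SciPy 1.17.1 and figures Matplotlib 3.10.9. The fit was tested on simulated data with independent noise and shifts of at least 1 log2 unit in PSC alone. Smaller shifts and the EB_PSC comparisons were not simulated. The array number limits the precision.

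The members and gene lists were chosen with earlier results of these data known. Named are the Dppa genes, their 5 nearest profiles, 3 measured neighbours on either side, fixed pluripotency and methylation genes, and up to 4 called genes a list. The remaining germ cell genes called in PSC against ESC are named too. RefSeq served for names, chromosomes and gene order. Promoter windows were not used here. Alternatives covered scaling, filters, probe sets, variance models, the replicate number and single arrays; those for genes other than Dppa were chosen after seeing the data.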

Additional observations from a re-analysis of the deposited data

How the results depend on the processing

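Of the 9 differences of Dppa genes, 6 kept their direction and call in every alternative, and 0 reversed. In PSC against ESC, Dppa4 passed with the mean of all probe sets (-0.30, limma adjusted p = 0.0497) and with array weights (-0.35, 0.0107), and lay between -0.38 and -0.26 when single arrays were left out. In EB_PSC against PSC, Dppa3 lay between -1.16 and -0.44 without single arrays, and the fit with the replicate block left it at -0.82. In EB_PSC against ESC, Dppa3 passed with cyclic loess (0.68, 0.0241) and with array weights (0.59, 0.0161), and lay between 0.09 and 0.81 without single arrays (0.0880 without EB_PSC 2). Why these values moved was not tested. The number of genes called in PSC against ESC was 3782, or 5693 with array weights and 2490 to 4142 without single arrays. Cyclic loess turned the balance of higher to lower calls from 3417 and 4578 to 4185 and 3566 in EB_PSC against PSC, and from 3513 and 4652 to 4435 and 3626 in EB_PSC against ESC. In PSC against ESC, 1651 higher and 2131 lower calls became 2026 and 1870 with quantile normalization again, and 1974 and 1933 with cyclic loess. Of 70 differences of other named genes, 59 kept their call throughout. Samples sharing a number deviated from their group means with correlations of -0.25, -0.07 and -0.04 between PSC and ESC, -0.14 and 0.04 between EB_PSC and PSC, and 0.16 and 0.22 between EB_PSC and ESC. With 2 pairs the last do not establish a pairing, and the samples are taken to share only a number. With the replicate block 3564, 7517 and 7693 genes were called in the 3 comparisons, against 3782, 7995 and 8165, and no Dppa call changed. Small differences of dim genes are what these arrays resolve least.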

Other observations

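On the 2 embryoid body arrays, Dppa3 was higher on EB_PSC 2 by 0.72, and so were the means of several lists of differentiated cells. The mean over cardiomyocyte markers was 8.70 on EB_PSC 2 and 7.98 on EB_PSC 1, that over visceral endoderm markers was 7.82 and 7.34, and that over embryonic erythroid markers was 8.92 and 8.52 (log2). The mean over fibroblast markers was 9.44 on EB_PSC 2 and 9.09 on EB_PSC 1. Lower on EB_PSC 2 were primed epiblast markers, at 7.19 and 7.47. The means over pluripotency genes were 8.71 and 8.83, and those over primordial germ cell genes 6.76 and 6.86. The oocyte and maternal-effect genes stood at 5.37 and 5.24. With 1 value per array these are descriptions, and their part in the Dppa3 value was not tested.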
